A study of Homo sapiens with 10 samples.

Results

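The MCM helicase family was described as 10 genes, MCM2 to MCM10 and MCMBP, out of the 14884 genes that the probe annotation named on the array. They were taken by symbol. Each was represented by 1 probe set, so no choice among probe sets arose. All 10 lay above the array median on all 10 arrays, and all 10 therefore passed the filter on dim probe sets and were among the 10797 genes tested.

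RNA came from untreated cultures of HCT116, a line established from a human colorectal carcinoma, and was measured on Affymetrix expression arrays. The groups were an unmodified line (WT), a pair of ORC1 mutant lines (ORC1B14 and ORC1BP32) and a pair of ORC2 mutant lines (ORC2B2 and ORC2BP8), each with 2 arrays titled as biological replicates 1 and 2. The alleles, the way the lines were made and whether each is a clone are not given in the labels, and the probe annotation used here names neither ORC1 nor ORC2, so the mutated genes themselves were not analysed here. Whether the replicates were grown or extracted separately is not given either. The p-values below rest on the spread between the 2 arrays of each line. They do not measure the spread between lines, and WT is 1 line. All differences are in log2 units, on the reading that the deposited values are log2, which rests on their range of 1.45 to 13.7 and on no label.

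MCM2 to MCM7 form the ring-shaped core of the replicative DNA helicase. The origin recognition complex, of which ORC1 and ORC2 are subunits, loads this ring onto DNA together with CDC6 and CDT1, and the ring becomes active when CDC45 and the GINS complex join it. MCM8 and MCM9 form a separate helicase that works in homologous recombination, MCM10 takes part in switching on the loaded helicase, and MCMBP binds free MCM subunits. Transcription of many of these genes follows the cell cycle through E2F factors in dividing cells. In RNA of whole cultures, more cells with a transcript and more transcript per cell cannot be told apart.

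Most members had higher values in the mutant lines than in WT. MCM4 was about 2.10-fold above WT in the mean of the 4 mutant lines (log2 difference 1.07, SE 0.15, limma adjusted p = 0.0134) and MCM2 2.12-fold (1.09, SE 0.21, adjusted p = 0.0438). These 2 of 10 members passed the threshold in that mean, against 0.417% of all genes tested that were called higher, and 0 were called lower, against 0.602%. The family was chosen with earlier results of these data known. Counts of members set beside shares of all genes, here and below, therefore describe the members and are no independent test. The differences of MCM5, MCM7 and MCM10 were 1.15, 0.76 and 0.85 with limma adjusted p of 0.0589, 0.0611 and 0.125. Those of MCM3, MCM6 and MCMBP were 0.43, 0.66 and 0.33 with limma adjusted p of 0.253, 0.255 and 0.258. MCM8 and MCM9, the recombination helicase, had 0.28 and -0.06, with adjusted p of 0.668 and 0.910. The WT line had the lowest mean of the 5 lines for 8 members, and the exceptions were MCM8 and MCM9. The share of all genes with their lowest mean in WT was not counted. All comparisons with WT use the same WT arrays, so their directions are not independent of each other. The fit behind these values has no block for the replicate number. With a block, more members were called in the mean of the 4 mutant lines, as counted in the closing section. Of all genes, 354 were then called higher.

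The promoter stretches of 5 members are printed. MCM2, MCM3, MCM6 and MCM7 carry the letters of the E2F recognition site searched here, and MCM9, whose differences from WT were near 0, does not. This choice leaves out MCM8, MCM10 and MCMBP, which do not follow that split and are described below. MCM3 follows it only in part. In the ORC2 mean it differed from WT by 0.25 (limma adjusted p = 0.610), less than MCMBP, which had 0.36 (limma adjusted p = 0.293). Of the members, 8 have an entry in the RefSeq promoter table (GRCh38.p14), in windows of 300 bases with 250 before the start of the gene and 50 after it. MCM4 and MCM5 are named only. Each line gives 210 of those bases, 190 before the start and 20 after it, on the gene's own strand, with capitals for matches to the E2F and CCAAT letters. The stretches are chr3:127598221-127598430 (plus strand) for MCM2, chr6:52284723-52284932 (minus) for MCM3, chr2:135876424-135876633 (minus) for MCM6, chr7:100101378-100101587 (minus) for MCM7 and chr6:118935140-118935349 (minus) for MCM9.
MCM2: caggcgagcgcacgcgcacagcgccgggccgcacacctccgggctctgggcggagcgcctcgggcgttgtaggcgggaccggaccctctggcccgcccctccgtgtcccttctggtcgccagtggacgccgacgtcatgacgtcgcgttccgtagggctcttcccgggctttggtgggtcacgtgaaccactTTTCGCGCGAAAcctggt
MCM3: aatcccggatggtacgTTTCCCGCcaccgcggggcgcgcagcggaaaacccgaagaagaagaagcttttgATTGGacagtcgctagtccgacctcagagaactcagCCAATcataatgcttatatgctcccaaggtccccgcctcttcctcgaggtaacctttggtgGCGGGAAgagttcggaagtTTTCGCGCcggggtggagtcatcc
MCM6: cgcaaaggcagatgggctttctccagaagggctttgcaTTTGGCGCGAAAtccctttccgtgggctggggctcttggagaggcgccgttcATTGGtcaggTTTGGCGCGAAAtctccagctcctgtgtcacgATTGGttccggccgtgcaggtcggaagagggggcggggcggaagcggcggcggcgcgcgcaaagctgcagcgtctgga
MCM7: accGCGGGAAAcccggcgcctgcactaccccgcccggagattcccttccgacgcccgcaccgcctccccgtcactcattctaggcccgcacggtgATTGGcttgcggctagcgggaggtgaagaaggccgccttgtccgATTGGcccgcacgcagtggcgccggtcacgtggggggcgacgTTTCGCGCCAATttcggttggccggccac
MCM9: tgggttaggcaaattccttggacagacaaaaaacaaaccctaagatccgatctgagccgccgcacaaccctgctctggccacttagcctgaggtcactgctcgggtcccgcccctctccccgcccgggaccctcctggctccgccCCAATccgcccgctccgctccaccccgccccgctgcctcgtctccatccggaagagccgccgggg

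The 8-letter E2F forms searched, on both strands, were TTTCCCGC, TTTCGCGC, TTTGCCGC and TTTGGCGC. At least 1 was found in 5 of the 8 windows, those of MCM2, MCM3, MCM6, MCM7 and MCM8, against 3.33% of all 27305 promoter windows and 4.49% of the 10749 windows of genes named on the array. The 7-letter forms are the same letters without the leading T and so lie inside every 8-letter match. They were found in the same 5 windows, against 13.1% of all windows and 17.4% of those of genes named on the array. MCM6 held 4 matches of the 8-letter forms, at 152, 148, 90 and 86 bases before the start, as 2 overlapping pairs. MCM2 held 2 overlapping matches just after the start, MCM3 matches at 174 and 4 bases before it, and MCM7 at 187 and 9 bases before it. CCAAT, the letters bound by NF-Y, was found on either strand in 6 of 8 windows, with 3 matches each in MCM3 and MCM7. It was found in 35.7% of all windows and 36.0% of those of genes named on the array. The E-box CACGTG, a palindrome known as a site of MYC, was found in MCM2, MCM7 and MCM8. Its shares were 7.43% of all windows and 9.02% of those of genes named on the array. MCM10, whose difference from WT was of the size of that of MCM7, held CCAAT and none of the E2F forms searched. Its window does hold TTTGGCGG, which differs from a searched form in the last letter. MCMBP held none of the letters searched, and its mutant arrays all lay above both WT arrays. MCM8 held E2F letters, with differences from WT of -0.09 and 0.02 in the ORC1 lines and 0.62 and 0.57 in the ORC2 lines. Of the 5 members with E2F letters MCM2 was the 1 called in the mean of the 4 mutant lines. A match describes letters in the window, a missing match says only that these letters are not there, and binding was not measured.

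**Figure D1:**
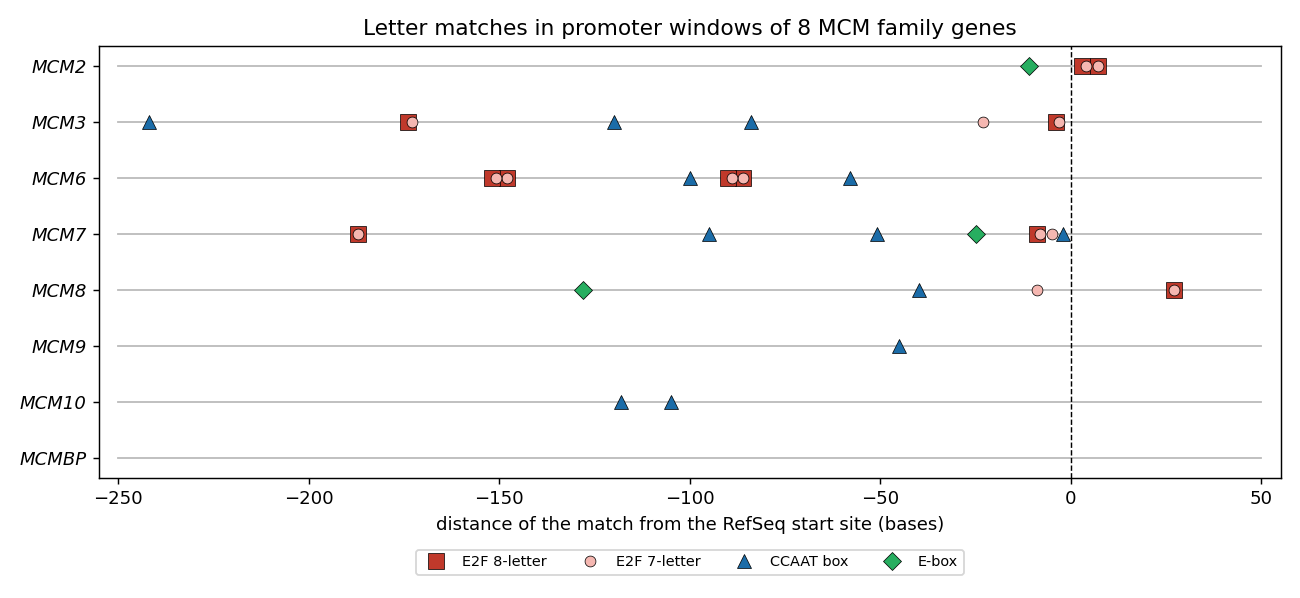
Positions of letter matches in the promoter windows of 8 MCM family genes, as the distance in bases from the RefSeq start site (dashed line), from 250 before to 50 after it. Squares are 8-letter E2F forms, circles 7-letter E2F forms, triangles CCAAT and diamonds the E-box; E2F squares appear in MCM2, MCM3, MCM6, MCM7 and MCM8 only, and MCMBP holds none of the 4 kinds.

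The core helicase subunits were taken in turn. MCM4, a subunit of the MCM4-MCM6-MCM7 part of the ring (probe set 17068782, chromosome 8), read 8.47 and 8.32 in replicates 1 and 2 of WT, 9.35 and 9.72 in ORC1B14, 9.28 and 9.33 in ORC1BP32, 9.54 and 9.59 in ORC2B2, and 9.27 and 9.64 in ORC2BP8. All 8 mutant arrays lay above both WT arrays, by 0.80 to 1.40 within a replicate number. MCM4 exceeded WT by 1.14 (ORC1B14), 0.91 (ORC1BP32), 1.17 (ORC2B2) and 1.06 (ORC2BP8), each with an SE of 0.19 and limma adjusted p of 0.0384, 0.156, 0.0371 and 0.0317. In this fit, which has no block for the replicate number, MCM4 was the 1 member of 10 called in ORC1B14, in ORC2B2 and in ORC2BP8, where 0.185%, 0.12% and 0.25% of all genes were called higher. In ORC1BP32, 0 of 10 members were called and 0% of all genes were called higher, while 5 members and 5.28% of all genes were higher at an unadjusted limma p under 0.05. In the mean of the ORC1 lines and that of the ORC2 lines MCM4 was again the 1 member called, with differences of 1.02 (adjusted p = 0.0373) and 1.11 (adjusted p = 0.0147), where 0.0926% and 0.296% of all genes were called higher. With a block for the replicate number, more members were called in each of these comparisons, as counted in the closing section. Of all genes, 225 (ORC1B14), 23 (ORC1BP32), 111 (ORC2B2) and 178 (ORC2BP8) were then called higher.

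The MCM4 calls depended on which arrays were in the fit. In the mean of the 4 mutant lines and that of the ORC2 lines, the call ended without WT replicate 1 (adjusted p = 0.0777 and 0.0782) and without WT replicate 2 (0.165 and 0.163), and held without each of the other 8 arrays. The call in the mean of the ORC1 lines held in 3 of the 10 fits with 1 array left out, those without ORC1B14 replicate 2, ORC2BP8 replicate 1 or ORC2BP8 replicate 2, and its highest adjusted p was 0.231, without WT replicate 2. That in ORC1B14 held only without ORC2BP8 replicate 1 or 2, with a highest adjusted p of 0.181 without WT replicate 2. That in ORC2B2 ended without either array of WT, ORC1BP32 or ORC2B2, with a highest adjusted p of 0.227 without WT replicate 2. That in ORC2BP8 ended without either array of WT, ORC1BP32 or ORC2B2 and without ORC2BP8 replicate 2, the last giving the highest adjusted p of 0.224. The difference itself stayed between 0.83 and 1.33 in all these fits for the 4 lines. Centring the array medians also ended the calls in ORC1B14, ORC2B2, ORC2BP8 and the ORC1 mean (adjusted p = 0.0567, 0.0709, 0.0589 and 0.0696).

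MCM2, which binds histones as well as its ring partners (probe set 16945101, chromosome 3), read 7.17 and 7.71 in WT, 8.51 and 8.71 in ORC1B14, 8.54 and 8.47 in ORC1BP32, 8.40 and 8.43 in ORC2B2, and 8.16 and 9.0 in ORC2BP8. The groups did not overlap, and the widest gap within a line was in ORC2BP8. Differences from WT were 1.17, 1.07, 0.97 and 1.14 in ORC1B14, ORC1BP32, ORC2B2 and ORC2BP8 (SE 0.27), with limma adjusted p from 0.0870 to 0.221. The call in the mean of the 4 mutant lines held only without ORC2BP8 replicate 1 or 2. It ended without each of the other 8 arrays, with a difference of 0.82 (adjusted p = 0.364) without WT replicate 1 and of 1.35 (adjusted p = 0.154) without WT replicate 2. It also ended with array medians centred (adjusted p = 0.0676) and with no filter on dim probe sets (0.0549).

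MCM5, which with MCM2 forms the gate through which the ring opens onto DNA (probe set 16929573, chromosome 22), read 7.39 and 8.23 in WT, 8.80 and 9.13 in ORC1B14, 8.87 and 8.97 in ORC1BP32, 8.86 and 9.16 in ORC2B2, and 8.49 and 9.41 in ORC2BP8. All mutant arrays were above both WT arrays, and the replicates of WT and of ORC2BP8 lay 0.84 and 0.92 apart. The 4 line differences lay between 1.12 and 1.20, closer together than those of any other member, with an SE of 0.33 and limma adjusted p from 0.125 to 0.294. The residual SD of MCM5 ranked at the 92.3rd percentile of all genes tested, and that of MCM4, with differences of like size, at the 29.6th.

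MCM7 (probe set 17060412, chromosome 7) read 8.28 and 8.74 in WT, 9.17 and 9.45 in ORC1B14, 9.20 and 9.22 in ORC1BP32, 9.20 and 9.38 in ORC2B2, and 9.03 and 9.50 in ORC2BP8. Again no mutant array reached down to either WT array. Differences from WT were 0.80, 0.70, 0.78 and 0.75 in ORC1B14, ORC1BP32, ORC2B2 and ORC2BP8, with an SE of 0.22 and limma adjusted p from 0.119 to 0.321. MCM6, which like MCM7 belongs to the MCM4-MCM6-MCM7 part (probe set 16903090, chromosome 2), read 8.004 and 8.61 in WT, 8.49 and 9.37 in ORC1B14, 8.67 and 9.09 in ORC1BP32, 9.10 and 9.38 in ORC2B2, and 8.41 and 9.28 in ORC2BP8. Its groups overlapped, since replicate 1 of ORC1B14 and of ORC2BP8 lay below replicate 2 of WT. Within each replicate number, all 8 differences of MCM6 from WT were above 0, between 0.40 and 1.09. Its line differences were 0.62, 0.57, 0.93 and 0.53 (SE 0.35, limma adjusted p from 0.321 to 0.648).

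MCM3 (probe set 17020019, chromosome 6), whose tail contacts ORC and CDC6 during loading, read 9.08 and 9.54 in WT, 9.82 and 10.16 in ORC1B14, 9.67 and 10.07 in ORC1BP32, 9.89 and 9.46 in ORC2B2, and 9.47 and 9.41 in ORC2BP8. The ORC1 lines lay above both WT arrays, and 3 of the 4 ORC2 arrays lay between them. Differences from WT fell in the order 0.68, 0.56, 0.36 and 0.13 from ORC1B14 through ORC1BP32 and ORC2B2 to ORC2BP8 (SE 0.23, limma adjusted p from 0.176 to 0.850). MCM3 was the least like the other core subunits over the 10 arrays: its Pearson correlations with them, as a description, were 0.47 to 0.54 over 5 pairs, and those among the 5 others 0.73 to 0.99 over 10 pairs. The arrays share their lines and replicate numbers.

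**Figure D2:**
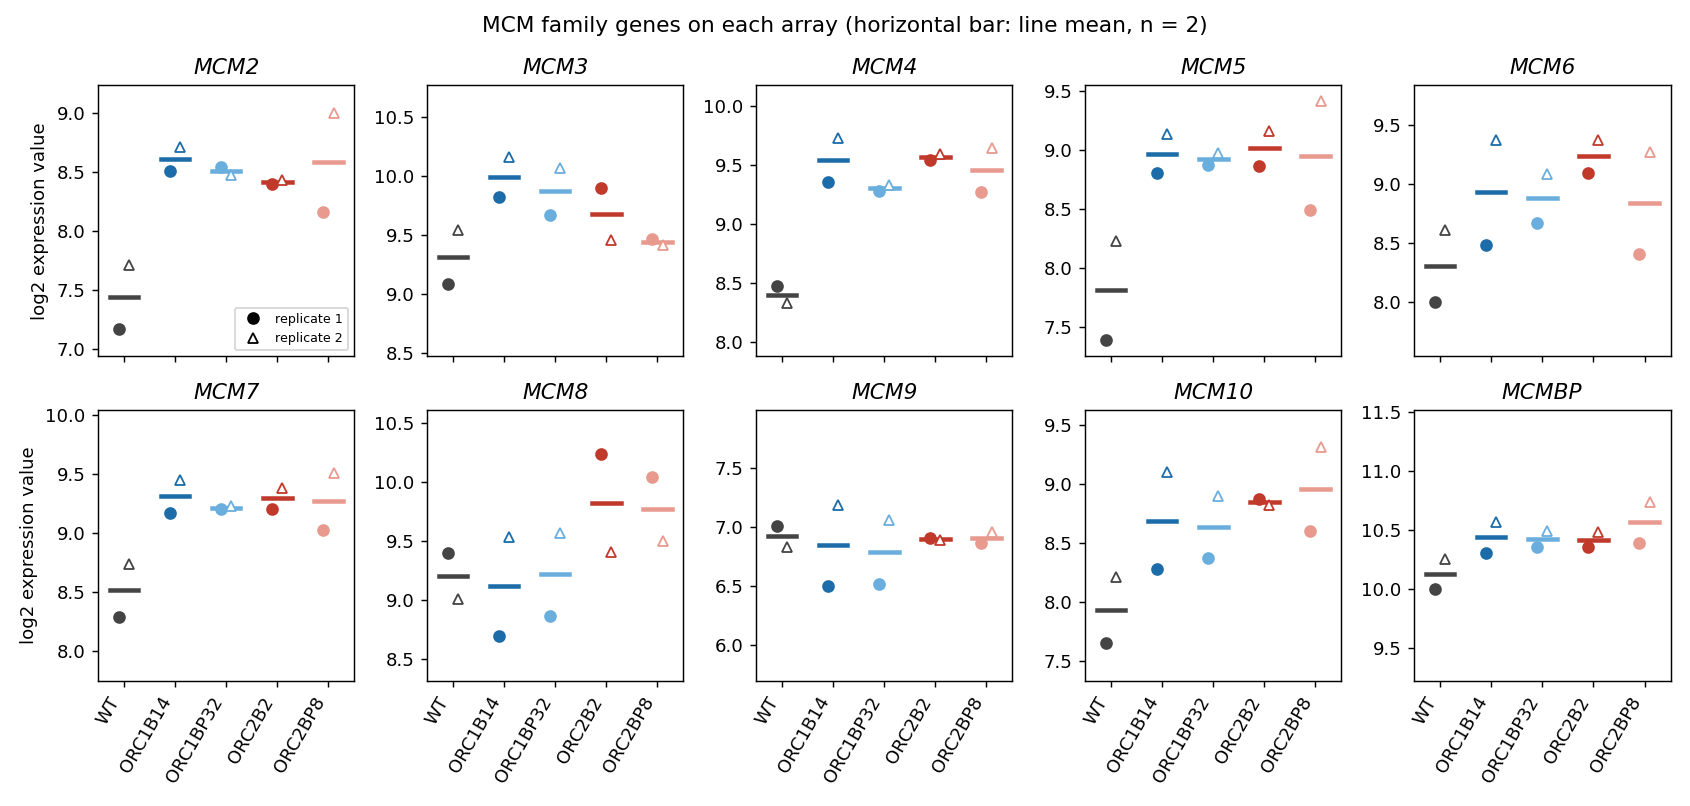
Deposited log2 value of each of the 10 MCM family genes on each of the 10 arrays, by line (filled circles are replicate 1, open triangles replicate 2, and bars the line mean). For MCM2, MCM4, MCM5, MCM7, MCM10 and MCMBP all 8 mutant arrays lie above both WT arrays, while in the ORC1 lines MCM8 and MCM9 have arrays on both sides of WT.

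MCM10 (probe set 16702571, chromosome 10) read 7.66 and 8.22 in WT, 8.28 and 9.10 in ORC1B14, 8.37 and 8.90 in ORC1BP32, 8.87 and 8.82 in ORC2B2, and 8.61 and 9.31 in ORC2BP8. The groups did not overlap, although replicate 1 of ORC1B14 was only just above replicate 2 of WT. Differences from WT were 0.75, 0.70, 0.91 and 1.02 in ORC1B14, ORC1BP32, ORC2B2 and ORC2BP8, with an SE of 0.33 and limma adjusted p from 0.179 to 0.510. MCMBP (probe set 16718983, chromosome 10) read 10.001 and 10.25 in WT, 10.30 and 10.57 in ORC1B14, 10.35 and 10.49 in ORC1BP32, 10.35 and 10.48 in ORC2B2, and 10.39 and 10.73 in ORC2BP8. Its differences were small, 0.31, 0.29, 0.29 and 0.43 (SE 0.18, limma adjusted p from 0.293 to 0.638), but no mutant array lay as low as a WT array.

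MCM8 (probe set 16911212, chromosome 20) read 9.40 and 9.01 in WT, 8.70 and 9.54 in ORC1B14, 8.87 and 9.57 in ORC1BP32, 10.24 and 9.41 in ORC2B2, and 10.05 and 9.50 in ORC2BP8. Both ORC2 lines lay above both WT arrays, and the ORC1 lines had 1 array on each side of WT. Within replicate 1 the ORC1 lines lay below WT, by -0.70 in ORC1B14 and -0.53 in ORC1BP32, and within replicate 2 above it, by 0.53 and 0.56. In the ORC2 lines the differences were above 0 in both replicates, 0.84 and 0.40 in ORC2B2 and 0.65 and 0.49 in ORC2BP8. The fitted differences were -0.09, 0.02, 0.62 and 0.57 in ORC1B14, ORC1BP32, ORC2B2 and ORC2BP8 (SE 0.36, limma adjusted p from 0.514 to 0.993).

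MCM9 (probe set 17023095, chromosome 6), the partner of MCM8, read 7.01 and 6.83 in WT, 6.50 and 7.18 in ORC1B14, 6.51 and 7.06 in ORC1BP32, 6.90 and 6.89 in ORC2B2, and 6.86 and 6.95 in ORC2BP8. It was the member with the smallest range over the 10 arrays, 0.68, and both ends of that range were arrays of ORC1B14. Of its 8 differences within a replicate number, 4 were above 0. The interval of the mean difference of the 4 mutant lines from WT ran from -0.51 to 0.39 (95%, limma). Over the 10 arrays MCM8 and MCM9 correlated with the mean of MCM2 to MCM7 at 0.13 and -0.03. MCM10 and MCMBP did so at 0.90 and 0.89, and each of the core subunits with the mean of the other 5 at 0.54 (MCM3) to 0.98 (MCM7).

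**Figure D3:**
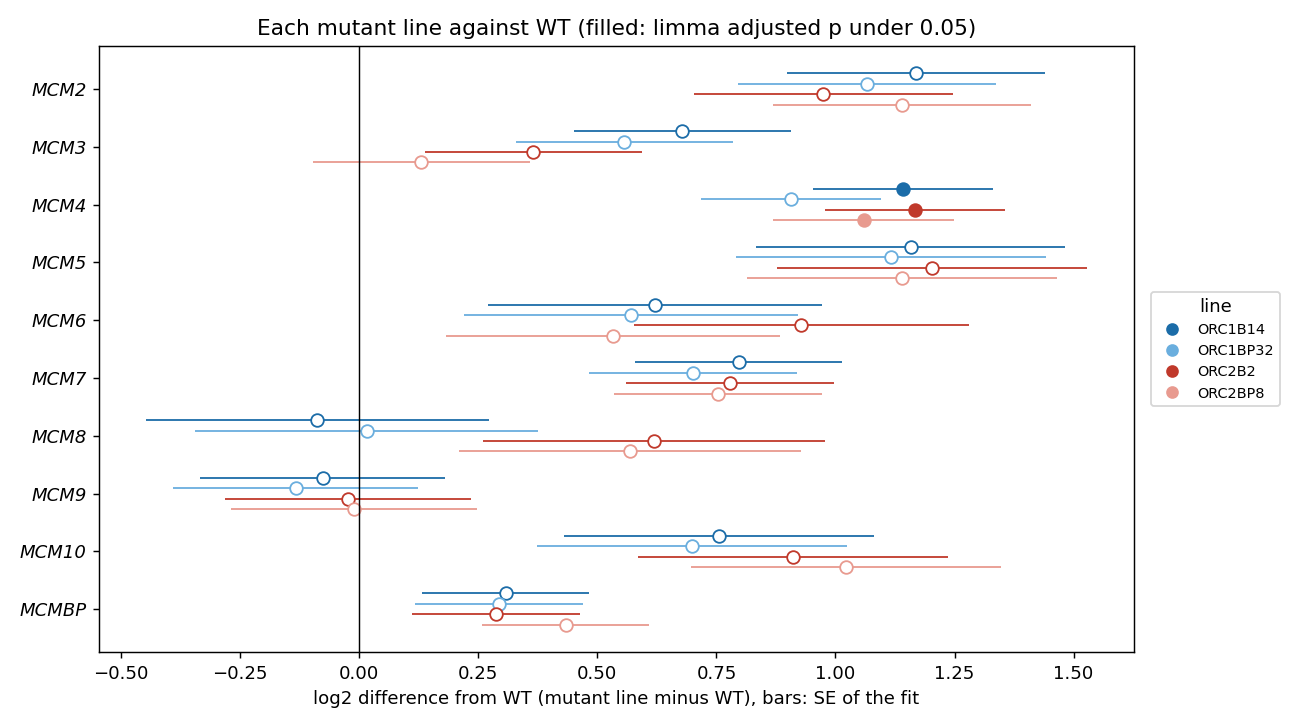
Log2 difference from WT of each MCM family gene in each of the 4 mutant lines (points; bars are the standard error of the limma fit; filled points have an adjusted p under 0.05). The filled points are MCM4 in ORC1B14 (1.14), ORC2B2 (1.17) and ORC2BP8 (1.06), and MCM8 has values near 0 in the ORC1 lines and near 0.6 in the ORC2 lines. The ORC1 values of MCM8 average replicates that lie on both sides of WT.

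Seen as a family, the median member lay above WT by 0.72 (ORC1B14), 0.63 (ORC1BP32), 0.84 (ORC2B2) and 0.66 (ORC2BP8). The median of all genes tested was 0.04, 0.04, 0.03 and 0.03. At an unadjusted limma p under 0.05, 6, 5, 6 and 6 members were higher in these lines, against 8.15%, 5.28%, 5.82% and 7.41% of all genes, and 0 members were lower in any of them, against 8.81%, 4.82%, 5.87% and 7.15%. All 8 mutant arrays lay above both WT arrays for 6 members, MCM2, MCM4, MCM5, MCM7, MCM10 and MCMBP, and for 7.96% of all genes tested. For 0 members and 6.93% of all genes they lay below both. WT replicate 1 was the lowest of the 10 arrays for 7 members, the exceptions being MCM4, MCM8 and MCM9. How often it was the lowest over all genes was not counted.

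Values also differed by replicate number, so differences were read within a number too. Array medians over all probe sets were 3.94 to 3.96 for replicate 1 and 3.87 to 3.89 for replicate 2. Within replicate numbers, 7 members had all 8 differences from WT above 0, namely MCM2, MCM4, MCM5, MCM6, MCM7, MCM10 and MCMBP. MCM3 and MCM8 had 6 of 8 above 0. The share of all genes with 8 of 8 above 0 was not counted, and the 8 differences of a gene use the same 2 WT arrays. These counts therefore only describe the members. The WT replicates differed by 0.84 in MCM5, 0.61 in MCM6, 0.56 in MCM10 and 0.54 in MCM2, with replicate 2 higher in each. What the replicate number stands for is not given in the labels.

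**Figure D4:**
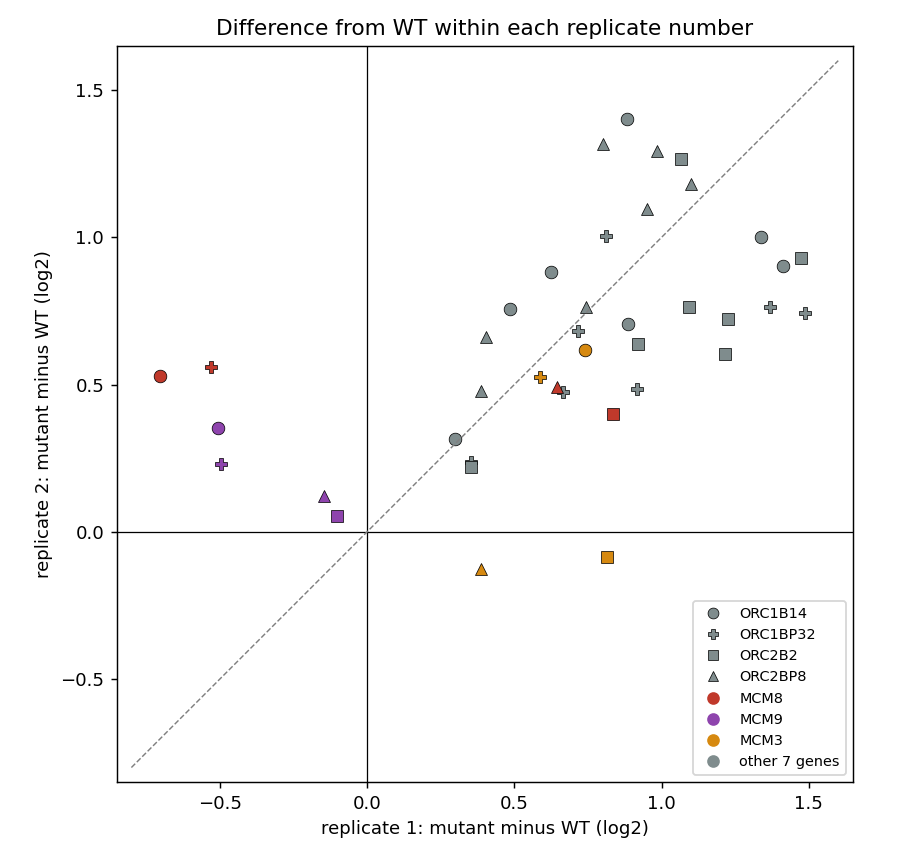
Log2 difference of each mutant array from the WT array of the same replicate number, replicate 1 on the x axis and replicate 2 on the y axis, with 1 point for each of the 10 MCM family genes and 4 mutant lines (marker shapes are lines, colours single out MCM3, MCM8 and MCM9, and the dashed line marks equal values). MCM4 ranges from 0.80 to 1.40, all above 0, while MCM8 in the ORC1 lines lies below 0 in replicate 1 and above 0 in replicate 2.

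The members were then compared by mutated gene. Between the ORC1 and the ORC2 lines, a comparison that uses no WT array, 0 of 10 members were called by limma, where 0.0463% of all genes were called. At an unadjusted p under 0.05, 1 member was higher in the ORC1 lines (4.13% of all genes) and 1 was lower (2.83% of all genes). The higher one was MCM3, by 0.37 (95% interval 0.01 to 0.73, limma adjusted p = 0.688). The lower one was MCM8, by -0.63 (95% interval -1.19 to -0.07, limma adjusted p = 0.640). In replicate 1 MCM8 read 8.70 and 8.87 in the ORC1 lines and 10.24 and 10.05 in the ORC2 lines. In replicate 2 it read 9.54 and 9.57 against 9.41 and 9.50, so the direction did not hold there. MCM3 overlapped in replicate 1, at 9.82 and 9.67 against 9.89 and 9.47. In replicate 2 MCM3 read 10.16 and 10.07 in the ORC1 lines against 9.46 and 9.41. For the 5 other core subunits the difference lay between -0.14 (MCM6) and 0.06 (MCM2), and the widest of their intervals was that of MCM6, from -0.68 to 0.41.

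Lines with the same mutated gene were compared with each other in the same way. Between ORC1B14 and ORC1BP32, 0 of 10 members were called by limma (0.0185% of all genes), and 0 were higher or lower at an unadjusted p under 0.05 (2.48% and 2.83% of all genes). The largest difference was that of MCM4, higher by 0.23 in ORC1B14 (95% interval -0.18 to 0.65). Between ORC2B2 and ORC2BP8, 0 of 10 were called (0.222% of all genes), again with 0 higher or lower at an unadjusted p under 0.05 (3.01% and 2.45% of all genes). There the largest was MCM6, higher by 0.40 in ORC2B2 (95% interval -0.38 to 1.17). A p that misses the threshold does not show that these lines are alike, and the intervals give the sizes that were not told from 0.

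Genes that act with the MCM ring were read from lists, which were also chosen with earlier results of these data known. Over all genes tested, 0.0926% were called higher and 0.176% lower in the ORC1 mean, and 0.296% and 0.769% in the ORC2 mean. At an unadjusted limma p under 0.05, 8.18% were higher and 8.13% lower in the ORC1 mean, and 7.65% and 7.52% in the ORC2 mean. Values above 0 made up 55.5% and 55.1% of all genes. Origin licensing, the loading step itself, had 3 of its 10 genes named, CDC6, CDT1 and LRWD1. CDC6, the ATPase that loads MCM with ORC, read 8.16 and 8.47 in WT and between 9.08 and 9.49 on the 8 mutant arrays, which did not overlap with WT. It rose by 0.90 in the mean of the ORC1 lines (SE 0.15, limma adjusted p = 0.0449) and by 1.07 in that of the ORC2 lines (SE 0.15, adjusted p = 0.0146). CDT1, the other loading factor, had 0.75 and 0.37 (adjusted p = 0.108 and 0.392). The CDC6 call in the ORC1 mean ended without any 1 of the 10 arrays, with adjusted p up to 0.282 without WT replicate 1, and with array medians centred (0.0829), no filter (0.0588), no intensity trend (0.0630) or only the arrays compared (0.0766). That in the ORC2 mean ended without WT replicate 1 (0.124) or WT replicate 2 (0.0810), and held without each of the 8 others.

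The list of CMG, firing and fork genes had 18 of 38 tested. It includes CDC45 and GINS, which turn the loaded ring into a working helicase. In the ORC1 mean and in the ORC2 mean 0 were called by limma, with 10 and 13 of 18 higher at an unadjusted p under 0.05 (8.18% and 7.65% of all genes). All 18 lay above 0 in each mean (55.5% and 55.1% of all genes), with medians of 0.56 and 0.70 against 0.04 for all genes. The GINS subunit GINS2 had 1.49 and 1.17 (adjusted p = 0.0798 and 0.110), CDC45 had 0.58 and 0.65 (0.278 and 0.236), and PCNA, the sliding clamp, 0.72 and 0.75 (0.108 and 0.0703). The DNA helicase RECQL4 was the 1 gene of the list called in the mean of the 4 mutant lines, at 0.87 (adjusted p = 0.0366). That call ended without WT replicate 1 (0.0869) or 2 (0.290), and RECQL4, GINS2, CDC45 and PCNA were chosen after their values were seen.

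Of the E2F factors and their partners at the entry to S phase, 21 of 27 were tested. In the ORC1 mean 0 were called by limma (8 of 21 higher and 1 lower at an unadjusted p under 0.05, against 8.18% and 8.13% of all genes), and in the ORC2 mean 1 was, which fell, where 0.769% of all genes did. This was RBL2, a pocket protein that holds E2F target genes down in resting cells. RBL2 read 7.76 and 7.80 in WT, 7.01 and 7.33 in ORC1B14, 7.09 and 7.34 in ORC1BP32, 7.34 and 7.38 in ORC2B2, and 6.45 and 6.13 in ORC2BP8. Every mutant array was below both WT arrays, and ORC2BP8 was the lowest. RBL2 fell by 0.95 in the ORC2 mean (limma adjusted p = 0.0361), a call that ended without WT replicate 1 (0.200) or 2 (0.220). E2F1 and the cyclin CCNE2, chosen after their values were seen, were called in the mean of the 4 mutant lines, at 0.91 (adjusted p = 0.0366) and 0.96 (adjusted p = 0.0476). Without WT replicate 1 their adjusted p were 0.322 and 0.377, and without WT replicate 2 they were 0.154 and 0.173. Both calls and that of RECQL4 also ended without either array of ORC1BP32 or ORC2B2 or without ORC2BP8 replicate 2, and those of E2F1 and RECQL4 without ORC1B14 replicate 1, with adjusted p from 0.0524 to 0.0883. Centring the array medians ended the calls of E2F1 (0.0563) and CCNE2 (0.0676), and leaving out the filter ended that of CCNE2 (0.0601).

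Nucleotide synthesis had 11 of 15 genes tested and mitosis 17 of 19. In the ORC1 mean 0 of either list were called by limma, with 3 and 10 higher at an unadjusted p under 0.05 (8.18% of all genes). In the ORC2 mean 1 of each rose, where 0.296% of all genes did: TYMS, which makes thymidylate, by 0.94 (limma adjusted p = 0.0441) and FOXM1, a transcription factor of mitotic genes, by 0.78 (adjusted p = 0.0423). Medians were 0.17 and 0.27 for nucleotide synthesis and 0.35 and 0.52 for mitosis in the ORC1 and ORC2 means. The TYMS call ended without WT replicate 1 (0.337) or 2 (0.121), and the FOXM1 call likewise (0.313 and 0.168). Of the regulators of MCM transcription 7 of 12 were tested, and MYBL2, the B-Myb factor, chosen after its values were seen, rose in the ORC2 mean by 1.30 (adjusted p = 0.0480; 0.338 and 0.124 without WT replicate 1 and 2). Histone chaperones, unloading factors and other partners of MCM had 15 of 21 tested, with 0 called by limma in either mean (6 and 7 higher at an unadjusted p under 0.05, against 8.18% and 7.65% of all genes) and medians of 0.20 and 0.29. The calls of RBL2, TYMS, FOXM1 and MYBL2 in the ORC2 mean each ended without either array of WT, ORC1BP32 or ORC2B2 and without ORC2BP8 replicate 2, with adjusted p from 0.0598 to 0.338, and also with array medians centred (0.0569 to 0.0758) and with only the arrays compared (0.0673 to 0.0936). Those of TYMS, FOXM1 and MYBL2 also ended with no filter (0.0531 to 0.0588) and without the intensity trend (0.0518 to 0.0626).

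**Figure D5:**
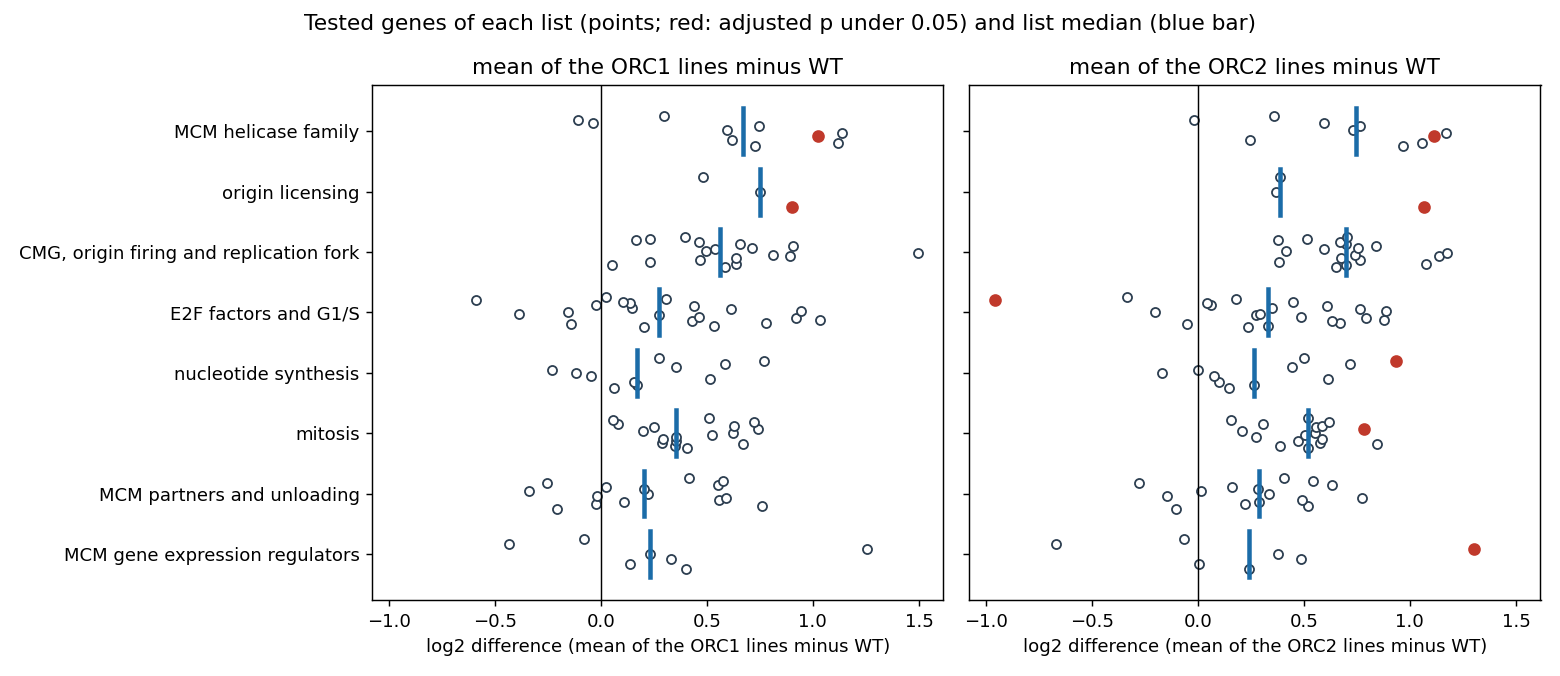
Log2 differences from WT of the tested genes of each list, for the mean of the ORC1 lines and that of the ORC2 lines (points; red for an adjusted p under 0.05; blue bars are list medians). The medians of the MCM family are 0.67 and 0.75, and those of the CMG and fork list 0.56 and 0.70.

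Over all genes tested, the 8 whose values over the 10 arrays were most like the mean of MCM2 to MCM7 were named by Pearson correlation after the array median was taken off. GINS1, a subunit of the GINS complex that joins the ring, was the closest at 0.979, and the others were DCLRE1B (0.972), HCCS (0.970), IQCC (0.968), UBE2T (0.966), CIAO3 (0.966), HECTD3 (0.965) and CDCA5 (0.962). Over the 5 line means the same correlations lay between 0.966 and 0.993. GINS1 read 7.10 and 7.43 in WT and 7.62 to 8.29 on the mutant arrays, with differences of 0.81 and 0.74 in the ORC1 and ORC2 means (limma adjusted p = 0.102 and 0.0971). DCLRE1B, a nuclease of telomeres and crosslink repair, had 1.10 in both means (adjusted p = 0.100 and 0.0703). These correlations are over arrays that share lines, and were picked as the highest of all genes, so they carry no test.

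The members lie on 8 chromosomes. For each member the nearest 3 tested genes on each side were taken in RefSeq order, 60 genes in all, by the order of their start positions. Of these, 4 lie inside the member: ASF1A in MCM9, and MIR25, MIR93 and MIR106B in MCM7, which were all 3 genes taken on that side of MCM7. The median difference from WT of the other 56 was 0.02 (ORC1B14), -0.04 (ORC1BP32), 0.01 (ORC2B2) and -0.11 (ORC2BP8). Over these 4 comparisons 1 of the 60 was called by limma, SPOPL, near MCM6, which was lower in ORC2BP8 by -0.94. The 6 neighbours of MCM4 had medians of -0.05 and 0.06 in the ORC1 and ORC2 means, where MCM4 had 1.02 and 1.11. Those of MCM3 had medians of 0.13, -0.17, 0.03 and -0.51 in ORC1B14, ORC1BP32, ORC2B2 and ORC2BP8, where MCM3 had 0.68, 0.56, 0.36 and 0.13.

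The precursors of 3 microRNAs lie inside the MCM7 gene in RefSeq, and each had a probe set of its own. Their main mature forms are printed with the seed, bases 2 to 8, in capitals, to show that miR-93 and miR-106b share a seed and miR-25 has another. They lie on the minus strand at chr7:100093571-100093592 (miR-25), chr7:100093815-100093837 (miR-93) and chr7:100094043-100094063 (miR-106b) of GRCh38.p14.
hsa-miR-25-3p: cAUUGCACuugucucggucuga
hsa-miR-93-5p: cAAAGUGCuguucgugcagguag
hsa-miR-106b-5p: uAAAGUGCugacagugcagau

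MIR25 read 5.43 and 6.09 in WT and 4.87 to 6.48 on the mutant arrays, MIR93 4.27 and 4.13 against 4.07 to 4.51, and MIR106B 5.00 and 5.13 against 4.88 to 5.55. All overlapped with WT. In the mean of the 4 mutant lines they differed from WT by -0.11 (95% interval -0.91 to 0.68), 0.03 (-0.29 to 0.35) and 0.12 (-0.29 to 0.52), with limma adjusted p of 0.908, 0.942 and 0.798, where MCM7 itself had 0.76 (0.38 to 1.14). A probe set of a precursor reads total RNA of the hairpin region, and mature microRNA was not measured. MIR93 lay close to the array medians over all probe sets, 3.87 to 3.96, where a change may not be seen. MIR25 was higher in replicate 2 than in replicate 1 of every line. Whether the precursors follow MCM7 was therefore not settled by these values.

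Cell identity was read from markers. Of 12 colon epithelial markers 9 were named and 8, among them EPCAM, CDX2 and the keratins KRT8 and KRT18, lay above the median on all arrays. The summed log2 level of the 9 named genes was 56.9 to 59.6 in WT and 58.9 to 61.7 in the mutants. Markers of fibroblasts, of blood, of liver and kidney lines, and of lung and breast lines summed to 9.10 to 9.89, 20.3, 25.7 to 26.2 and 24.2 to 24.7 in WT, and 9.14 to 9.67, 19.7 to 22.7, 25.6 to 27.02 and 23.5 to 26.2 in the mutants, over 3, 4, 6 and 6 named genes. Of these THY1, CD68, LCP1, SPI1, PAX2, PAX8, TTR, APOA1, GATA3 and SFTPB lay above the median on all arrays. Single markers differed from WT within these sums. The keratin KRT20 rose by 1.99 in ORC2B2 (limma adjusted p = 0.0322) and by 1.31 in the ORC2 mean (adjusted p = 0.0441). Its WT mean was 4.07, close to the array medians of 3.87 to 3.96. With only the arrays compared both calls ended (limma adjusted p = 0.0933 and 0.102). The call in the ORC2 mean also ended with array medians centred (0.0662) and with no filter (0.0557). The first call ended without either array of WT or ORC1BP32 or without ORC2B2 replicate 2 (0.0568 to 0.138), and the second without each array other than ORC2B2 replicate 1 and ORC2BP8 replicate 1 (0.0539 to 0.276). In ORC1B14 KRT18 differed from WT by 1.17 and the macrophage marker CD68 by 1.13 (limma adjusted p = 0.0566 and 0.110), and EPCAM and KRT8 had -0.14 and -0.21 in the mean of the 4 mutant lines (adjusted p = 0.668 and 0.629). These 5 markers were chosen after their values were seen. The part of the markers in the MCM values was not tested.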

How the data were processed

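RNA of 5 HCT116 lines was measured on 10 arrays, 2 a line. The authors deposited 1 value per probe set and array for 53617 probe sets, read here as log2 from the values. Affymetrix Expression Console is named in the submitters' processing notes; normalization, annotation and build are not given in the labels. The deposited values were used as they are. Exactly 1 symbol was given to 16098 probe sets and several to 0, and 37519 are unnamed here. All 16098 symbols matched the RefSeq gene table (GRCh38.p14). Probe sets at or above the array median on at least 2 arrays were kept, the brightest for each gene, which left 10797 genes. The number of arrays limits the precision. Arrays of a line correlated at 0.973 to 0.980, those of different lines at 0.947 to 0.986, and 0 pairs were identical.

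In R 4.3.3, limma 3.58.1 fitted 5 line means to all 10 arrays (eBayes with an intensity trend, with 5 residual degrees of freedom and 5.83 from the prior). Two-sided p-values were adjusted by Benjamini-Hochberg over all genes tested in each of 10 comparisons and called under 0.05. The fit was tested on simulated data. The members and gene lists were chosen with earlier results of these data known. Named genes are the members, the list genes called in the ORC1 or ORC2 mean, the 8 genes most like MCM2 to MCM7 and 3 neighbours on each side; others are named as chosen after their values were seen. Alternatives were other normalizations, filters, probe set choice, variance prior, arrays in the fit, a replicate block and each array left out.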

Additional observations from a re-analysis of the deposited data

How the results depend on the processing

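Of 1430 values of single members under alternatives, 1298 kept their direction and their side of the threshold, 51 lost a call, 42 gained one and 39 changed sign. The lost calls were all of MCM4 (41) and MCM2 (10), the only members with calls to lose. Most of the 1298 are values of members that were not called. Leaving out an array of a line outside the comparison does not change the difference, so these shares do not measure how stable the calls are. Counts of members called moved as follows, and the number of all genes called moved too, also with 1 array left out. With array medians centred the counts of members were 0 in ORC1B14, ORC2B2, ORC2BP8 and the ORC1 mean and 1 in the mean of the 4 mutant lines. Of all genes, 11, 8, 13, 6 and 17 were then called higher in these, against 20, 13, 27, 10 and 45 in the main fit. With only the arrays of the lines compared the counts of members were 0 in ORC1B14, ORC2B2, ORC2BP8 and the ORC1 mean. This setting gives no other fit for the mean of the 4 mutant lines. Without the intensity trend the ORC1 mean had 0 members called, and with no filter the mean of the 4 mutant lines had 1. There 5 and 28 of all genes were called higher, against 10 and 45 in the main fit. With quantile normalization, 26, 72 and 103 of all genes were called higher in the ORC1 mean, ORC2 mean and mean of the 4 mutant lines. The main fit called 10, 32 and 45 higher. Quantile normalization gave 2, 2 and 4 members called, with MCM2 added to the first pair of counts and MCM5 and MCM7 to the last. With 1 array left out, counts ranged from 0 to 2 in ORC1B14, ORC2BP8 and the ORC1 mean, from 0 to 1 in ORC2B2, and from 0 to 4 in the ORC2 mean and the mean of the 4 mutant lines.

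Replicate numbers were not taken as pairs in the main fit, since the labels do not say what they share. The arrays did share deviations by replicate number, and a fit without a block leaves these in its spread. Over the 10 pairs of lines, deviations of the same number correlated at 0.0812 (ORC1BP32 and ORC2B2) to 0.568, 9 of them over 0.1, and the 4 pairs with WT at 0.255 to 0.363. With the replicate block, 4 members were called in ORC1B14, 2 in ORC1BP32, 6 in ORC2B2, 5 in ORC2BP8, 5 in the ORC1 mean, 6 in the ORC2 mean and 6 in the mean of the 4 mutant lines, and 496, 57, 251, 402, 454, 570 and 709 of all genes.

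Signs changed for values near 0. Quantile normalization gave MCM9 0.0067 in ORC2B2, 0.033 in ORC2BP8 and 0.020 in the ORC2 mean. With 1 array left out, MCM9 ranged from -0.42 to 0.26 in ORC1B14, -0.41 to 0.14 in ORC1BP32, -0.11 to 0.064 in ORC2B2, -0.10 to 0.077 in ORC2BP8, -0.28 to 0.065 in the ORC1 mean, -0.11 to 0.070 in the ORC2 mean and -0.15 to 0.026 in the mean of the 4 mutant lines. MCM8 ranged from -0.51 to 0.33 in ORC1B14, -0.34 to 0.37 in ORC1BP32 and -0.25 to 0.17 in the ORC1 mean, and MCM3 from -0.10 to 0.36 in ORC2BP8. Between ORC1 and ORC2 lines the ranges were -0.15 to 0.27 (MCM2), -0.18 to 0.0042 (MCM4), -0.27 to 0.20 (MCM5), -0.36 to 0.085 (MCM6), -0.14 to 0.10 (MCM7), -0.26 to 0.083 (MCM9) and -0.15 to 0.027 (MCMBP). The cause was not tested.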
